A study of Arabidopsis thaliana with 27 samples.

Results

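The comparison set roots of the Arabidopsis thaliana line ICT1-8098 against roots of the line ICT1-2, both labelled as overexpressing S30 and kept in the solvent DMSO without indole-3-carbinol (I3C). Of the 26 libraries with values in the series, 5 form it: replicates 1, 4 and 5 of ICT1-8098_NT and replicates 1 and 2 of ICT1-2_NT. Of the 27 labelled samples, ICT1-2_NT replicate 5 was not analysed here, because no column of the table carries its name. No gene was chosen by its difference between the lines, and the test took the 21180 genes that passed a filter on level.

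The overexpression is labelled as driven by the promoter s35, the constitutive 35S promoter of a plant virus. ICT1-8098 is a homozygous line (psx08098) from a FOX library, a collection of plants that each carry a full-length cDNA, and ICT1-2 is a homozygous line with a transgene built by the submitters. Col_NT, wild-type Col-0 roots in DMSO (3 libraries), is given beside them, and ICT1-8098_200 and ICT1-2_200 (3 libraries each) are roots of the same lines in 200 µM I3C. All were roots of 10-day-old seedlings grown hydroponically, 20 per treatment, held in their solution for 2 h and collected together. Each genotype is a single transgenic line, so effects of the transgene, its insertion site and the history of the line cannot be told apart.

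S30 is a small protein of the cytosolic 40S ribosomal subunit, encoded in Arabidopsis by RPS30A, RPS30B and RPS30C. I3C is a breakdown product of indole glucosinolates, the defence compounds that cabbage relatives release on wounding, and it interferes with auxin signalling in roots. Plants also have a fast general stress response: within minutes of touch, wounding, cold or contact with microbial molecules, calcium enters the cytosol and genes for WRKY, ERF/DREB and ZAT transcription factors, jasmonate repressors and calmodulin-like proteins are switched on for a short time. Members of these families were among the genes that differed most between the lines in DMSO.

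The 5 libraries held 11467201 to 14836395 reads. Spearman correlations over genes were at least 0.983 within each line and at least 0.965 between them. Levels are normalized counts, the reads of a gene divided by the authors' size factor for the library. Differences are ICT1-8098_NT minus ICT1-2_NT on the log2(normalized count + 1) scale, written ± their standard error with n = 3 and n = 2. They were tested two-sided with limma, with Benjamini-Hochberg adjustment over 21180 genes and a threshold of 0.05. Root hair, endodermis and suberin, vascular, and meristem and cap markers were present in both lines, and none of the 8, 11, 8 and 7 genes tested on these lists passed with limma, while voom on recovered reads called 2 vascular genes and 1 of meristem and cap. Their summed levels did not overlap between the lines for 3 of the lists. Vascular markers summed to 9779 to 11022 in ICT1-8098_NT, against 7111 to 8604 in ICT1-2_NT and 9700.2 to 15031 in Col_NT. Endodermis and suberin markers summed to 3657 to 4583 in ICT1-8098_NT, against 2885 to 3636 in ICT1-2_NT and 3499 to 5641 in Col_NT. Meristem and cap markers summed to 843 to 935 in ICT1-8098_NT, against 1096 to 1207 in ICT1-2_NT and 678 to 725 in Col_NT. The part of these sums in the results below was not tested. Seed markers summed to 0 to 1.72 in ICT1-8098_NT and 0 to 1.94 in ICT1-2_NT, against 50.9 to 71.9 in Col_NT.

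The RNA of the S30 copies was the first check of the labels. RPS30A (AT2G19750, chromosome 2, 8514899 to 8516138 on TAIR10) had 4961, 5672 and 6598 normalized counts in ICT1-8098_NT, against 2048 and 2811 in ICT1-2_NT and 2094, 2403 and 3481 in Col_NT. Every ICT1-8098 library lay above every library of the other 2 groups, and ICT1-2 overlapped wild type. The line difference was 1.25 ± 0.24 (adjusted p = 0.0038), and it missed the threshold without ICT1-2_NT replicate 1 (adjusted p = 0.119). Against Col_NT the difference was 1.13 for ICT1-8098 (adjusted p = 0.000649) and -0.11 for the libraries labelled ICT1-2 (adjusted p = 0.796). The ICT1-2 libraries thus carry a label of S30 overexpression without a raised RPS30A count, and every direction below rests on the label. Transcripts of a transgene that lacked the annotated sequence would not be counted here. With I3C at 200 µM, RPS30A had 8861, 7977 and 8071 in ICT1-8098_200 and 3143, 2493 and 2017 in ICT1-2_200 (1.72 ± 0.21, adjusted p = 0.000464).

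The other copies did not pass. RPS30B (AT4G29390) had 1023, 845 and 798 in ICT1-8098_NT and 1047 and 870.1 in ICT1-2_NT (log2 fold change -0.11 ± 0.2, adjusted p = 0.874). RPS30C (AT5G56670) had 6135, 5224 and 5234 in ICT1-8098_NT and 6318 and 5256 in ICT1-2_NT (log2 fold change -0.06 ± 0.2, adjusted p = 0.938). RPS30A supplied 40.9, 48.3 and 52.2% of the summed S30 reads in ICT1-8098_NT, against 21.8 and 31.5% in ICT1-2_NT. Of 228 tested genes named RPL or RPS, RPS30A alone passed (0.44%, against 2.7% of all genes).

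The coding sequences of the 3 copies are shown because the reads have to tell them apart. They come from the RefSeq annotation of TAIR10.1, run 5′ to 3′ on the coding strand, and have capitals at the 37 of 189 positions where the copies are not all alike. The exons of RPS30A lie within chr2:8515037-8515806 (+), those of RPS30B within chr4:14465212-14465902 (−) and those of RPS30C within chr5:22935413-22935981 (−).
RPS30A: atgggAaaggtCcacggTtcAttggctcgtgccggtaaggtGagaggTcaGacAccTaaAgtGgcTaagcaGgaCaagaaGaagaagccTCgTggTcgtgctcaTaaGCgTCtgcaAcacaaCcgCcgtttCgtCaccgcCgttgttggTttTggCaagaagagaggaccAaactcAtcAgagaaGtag
RPS30B: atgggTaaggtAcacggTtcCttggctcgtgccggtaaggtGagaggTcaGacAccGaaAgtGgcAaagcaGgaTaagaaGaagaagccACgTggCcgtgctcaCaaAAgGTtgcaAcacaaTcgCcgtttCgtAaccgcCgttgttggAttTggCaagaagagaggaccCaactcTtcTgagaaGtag
RPS30C: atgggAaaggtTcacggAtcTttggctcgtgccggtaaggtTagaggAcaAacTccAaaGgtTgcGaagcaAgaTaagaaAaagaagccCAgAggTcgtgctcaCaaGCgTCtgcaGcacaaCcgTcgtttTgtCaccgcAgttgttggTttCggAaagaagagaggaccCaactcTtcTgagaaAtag
RPS30A and RPS30B share 89.9% of bases with a longest common run of 35, RPS30A and RPS30C 85.2% with a run of 20, and RPS30B and RPS30C 83.1% with a run of 29. Reads within such runs could be assigned to any of the copies that share them, and no source used here says how the authors counted them, so the split between copies is uncertain.

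**Figure D1:**
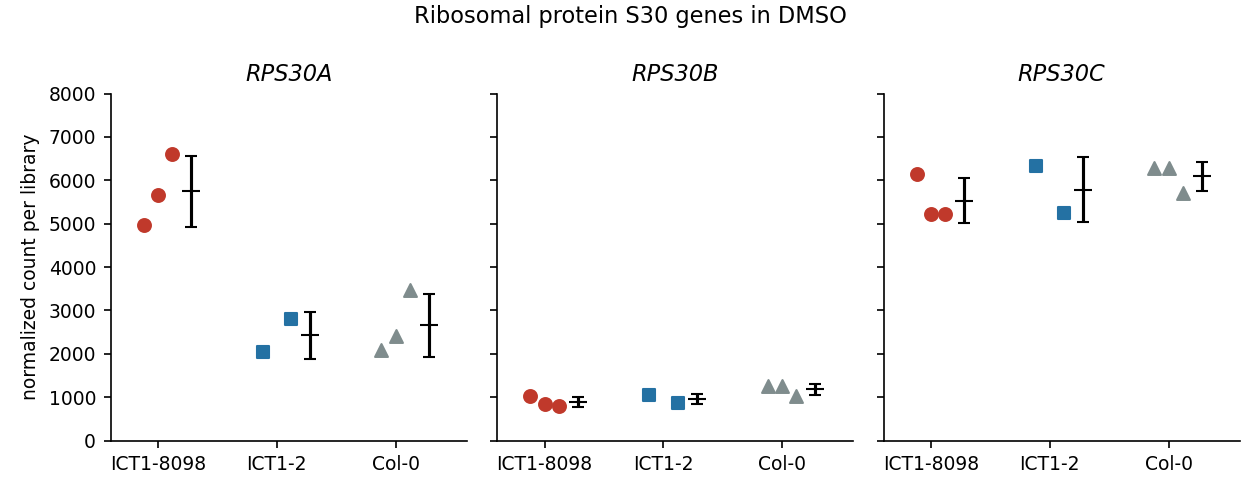
Normalized counts of the 3 S30 genes in each library of ICT1-8098_NT, ICT1-2_NT and Col_NT. Points are libraries, and bars show the group mean with its standard deviation. RPS30A stands higher in every ICT1-8098 library than in any ICT1-2 library, while RPS30B and RPS30C do not separate the lines.

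Genes lower in ICT1-8098 outnumbered the higher ones and moved further, and they included transcription factors, jasmonate, salicylate, calcium and touch genes. In all, 571 genes passed (2.7% of those tested): 134 were higher in ICT1-8098 (0.633%) and 437 were lower (2.06%). Among the lower genes 364 of 437 changed by more than 1 on the log2 scale, against 63 of 134 higher ones. Their median difference was -1.71, that of the higher genes 0.94, and that of all genes tested -0.001. None of the 571 genes overlapped between the groups, as held for 38.9% of all genes tested. In the authors' deposited table, which holds the same comparison, 685 genes were called lower and 272 higher (4.58% of 20884 together), among them 436 of the 437 and 129 of the 134. The count depended on single libraries: 204 genes passed without ICT1-2_NT replicate 1, 223 without ICT1-2_NT replicate 2, 366 without ICT1-8098_NT replicate 1 and 335 without ICT1-8098_NT replicate 4. A total of 101 lower and 7 higher genes passed whichever of the 5 libraries was left out, and the genes described as lasting below are of this kind. The word does not cover the other fits, and 448 of the 571 genes passed with voom on recovered reads. Fewer cells of a type and less RNA per cell cannot be told apart in whole roots.

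**Figure D2:**
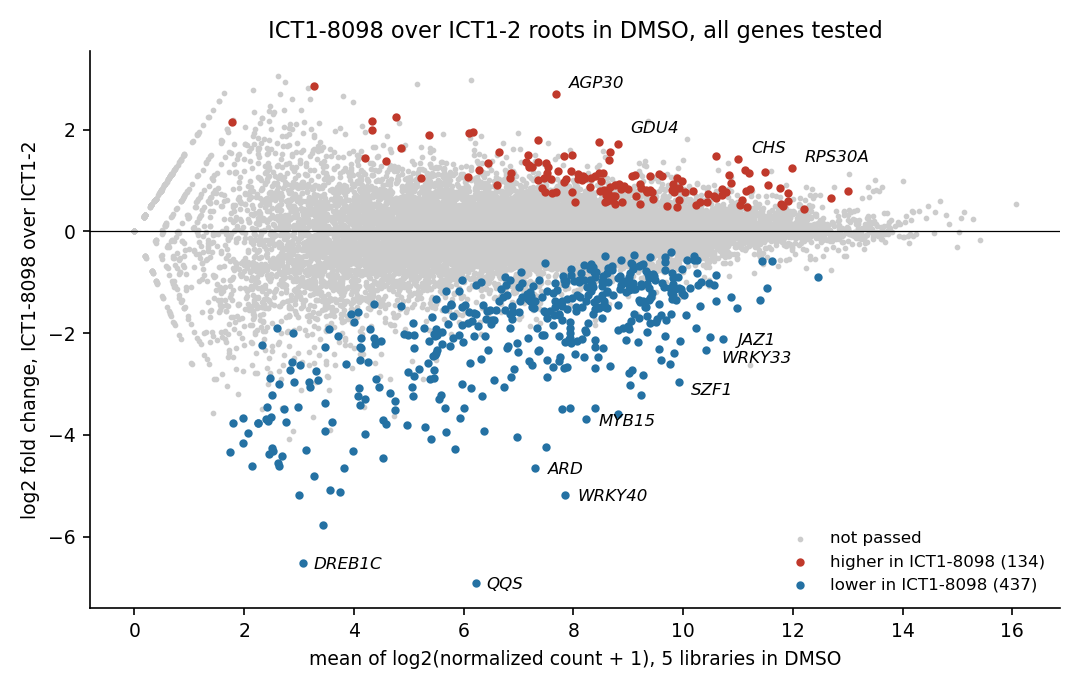
Log2 difference, ICT1-8098_NT minus ICT1-2_NT, against mean level for all genes tested, with the 134 higher and 437 lower genes coloured. The lower genes reach further from 0 than the higher ones.

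The DNA before the called genes was searched for short elements, which the test did not use. Windows of 250 bases upstream of the annotated start (RefSeq, TAIR10.1) were found for all 437 lower and all 134 higher genes and for 21046 of the 21180 tested. The elements were searched on both strands and chosen with the lower genes known. CGCGTT, the rapid stress response element recognised by calmodulin-binding CAMTA factors, was in 11.4% of windows of lower genes (50 genes), 0.7% of windows of higher genes (1 gene) and 2.8% of all windows (581 genes). Its inner core CGCG was in 24.0%, 5.2% and 10.9% in the same order. Of the 101 lasting lower genes, 16 (15.8%) held CGCGTT. The W box TTGACC or TTGACT, bound by WRKY factors, was in 41.0% of lower, 29.1% of higher and 28.8% of all windows. Other elements differed less in share: the G box CACGTG was in 10.3%, 6.7% and 7.2%, the DRE ACCGAC or GCCGAC in 9.4%, 7.5% and 7.8%, and the GCC box GCCGCC in 2.7%, 0.7% and 2.0%. These shares are descriptions without a test, and a match of letters does not show binding.

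Shown here are the windows of 2 of the 4 lasting lower genes with CGCGTT that had the smallest adjusted p-values, written 5′ to 3′ toward the gene with every element found in capitals. DREB1C (cold-induced transcription factor) is at chr4:13016236-13016485 (−) and PCFS5 (related to a factor of pre-mRNA cleavage) at chr5:17522236-17522485 (+).
DREB1C: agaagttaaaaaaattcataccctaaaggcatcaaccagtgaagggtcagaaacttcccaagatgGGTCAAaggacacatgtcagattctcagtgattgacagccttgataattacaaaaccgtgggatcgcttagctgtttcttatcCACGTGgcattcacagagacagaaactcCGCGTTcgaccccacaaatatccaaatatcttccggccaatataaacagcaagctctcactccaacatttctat
PCFS5: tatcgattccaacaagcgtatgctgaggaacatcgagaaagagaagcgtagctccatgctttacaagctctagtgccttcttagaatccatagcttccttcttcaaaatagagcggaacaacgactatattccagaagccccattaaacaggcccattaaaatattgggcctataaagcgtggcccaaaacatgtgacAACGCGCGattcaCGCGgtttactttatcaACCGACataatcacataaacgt
Both genes were lower in ICT1-8098_NT than in ICT1-2_NT whichever library was left out. PCFS5 had 167, 181 and 133 in ICT1-8098_NT and 735 and 644 in ICT1-2_NT (log2 fold change -2.11 ± 0.28, adjusted p = 0.000144). The values of DREB1C stand with its family below.

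**Figure D3:**
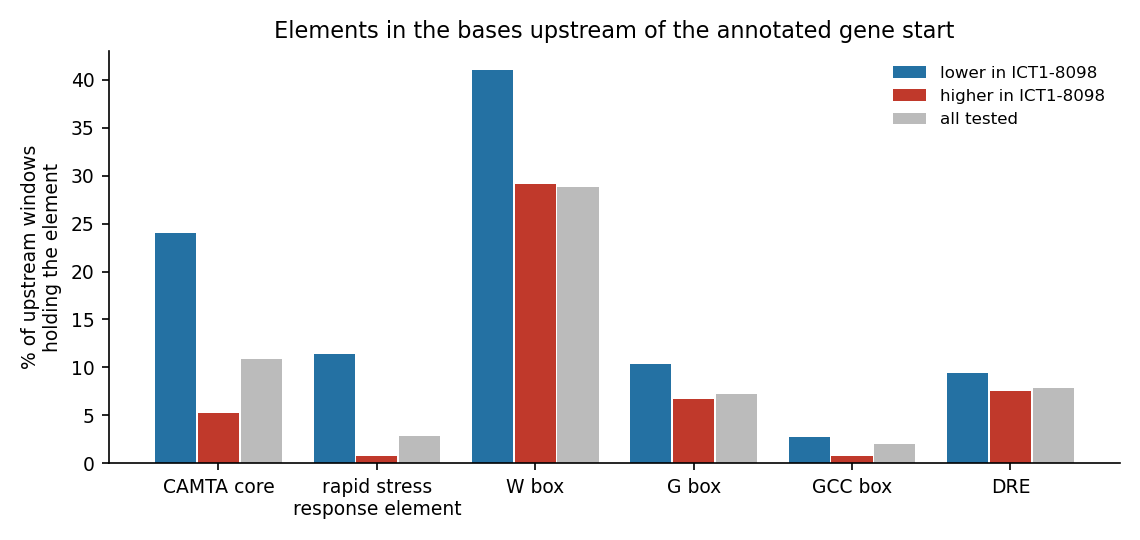
Share of 250-base upstream windows that hold each of 6 short elements, for genes lower in ICT1-8098_NT, genes higher in it and all genes tested. The CAMTA core, the rapid stress response element and the W box were in 24.0, 11.4 and 41.0% of windows of lower genes, against 10.9, 2.8 and 28.8% of all.

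Several transcription factors of the stress response were lower in ICT1-8098. Of 65 tested WRKY genes, 13 were lower (20.0%, against 2.06% of all genes) and none was higher: WRKY40, WRKY30, WRKY38, WRKY46, WRKY62, WRKY51, WRKY18, WRKY33, WRKY70, WRKY59, WRKY54, WRKY22 and WRKY6. Of 90 ERF and DREB genes 12 were lower and 1, RAP2-10, was higher. Among MYB factors 7 of 54 were lower, among NAC factors 5 of 70 (NAC062, NAC091, ANAC102, NAC081 and ANAC087), and none of either was higher. Members were taken by gene symbol, so ATMYB2, which was also lower, is not among the 7. Families were drawn up after the calls were seen and were not tested as families. The median difference was -0.29 over tested WRKY genes and -0.19 over ERF and DREB genes, and most members of these families did not pass. The WRKY count was 7 without ICT1-2_NT replicate 2.

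WRKY40, a pathogen-induced repressor, had 39.98, 44.7 and 87.4 normalized counts in ICT1-8098_NT, against 1855 and 2145 in ICT1-2_NT and 121, 107 and 321 in Col_NT. The ICT1-2 libraries were higher than all others in DMSO, and the 2 lines did not overlap (log2 fold change -5.18 ± 0.55, adjusted p = 1.29e-05). WRKY33, an activator of camalexin synthesis, had 754, 691 and 714 in ICT1-8098_NT and 3276 and 4019 in ICT1-2_NT (log2 fold change -2.33 ± 0.31, adjusted p = 0.000136). The gap here was smaller but the level much higher. ZAT10, a zinc finger repressor induced by salt, cold and light stress, had 379.8, 419.6 and 347 in ICT1-8098_NT and 2251 and 2184 in ICT1-2_NT (log2 fold change -2.54 ± 0.3, adjusted p = 3.63e-05). MYB15, which responds to cold and to microbial molecules, had 133, 61.05 and 150.4 in ICT1-8098_NT and 1277 and 1527 in ICT1-2_NT (log2 fold change -3.69 ± 0.56, adjusted p = 0.000438). All of these calls lasted through leaving out each library.

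DREB1C (CBF2) and DREB1B (CBF1) lie near each other on chromosome 4 and switch on cold tolerance genes. They were in none of the runs of neighbouring called genes given below. DREB1C had 1.67, 0 and 0 normalized counts in ICT1-8098_NT, 2 reads in all, against 139 and 115 in ICT1-2_NT and 23.1, 9.27 and 51.8 in Col_NT. ICT1-8098 was lower than both other groups (log2 fold change -6.52 ± 0.68, adjusted p = 1.29e-05), and the ratio of the lines was 0.00462 with a 95% exact counting interval of 0.000556 to 0.0169, which covers counting error only. DREB1B had 0, 2.58 and 5.64 in ICT1-8098_NT and 107 and 86.4 in ICT1-2_NT (log2 fold change -5.08, adjusted p = 0.0171), and did not pass without ICT1-2 replicate 1 (adjusted p = 0.149), replicate 2 (0.117) or ICT1-8098 replicate 1 (0.0956). ERF2, an ethylene-responsive activator, lasted, with 47.5, 81.7 and 79.9 in ICT1-8098_NT and 300.0 and 324 in ICT1-2_NT (log2 fold change -2.19 ± 0.24, adjusted p = 1.53e-05). ERF109, a redox-responsive factor, had 2.5, 0 and 3.76 in ICT1-8098_NT and 68.6 and 71.9 in ICT1-2_NT (log2 fold change -4.8 ± 1.2, adjusted p = 0.0282) and did not pass without ICT1-2 replicate 1 (adjusted p = 0.171), replicate 2 (0.181), ICT1-8098 replicate 1 (0.0575) or replicate 4 (0.135). RAP2-10, the higher member, had 129.9, 179.7 and 175 in ICT1-8098_NT and 54.6 and 93.2 in ICT1-2_NT (log2 fold change 1.15 ± 0.29, adjusted p = 0.03) and did not pass without ICT1-2 replicate 1 (adjusted p = 0.433), ICT1-8098 replicate 4 (0.118) or replicate 5 (0.0911).

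Most tested jasmonate genes were lower. Jasmonate is made from membrane lipids after wounding, and its repressors, the JAZ proteins, are themselves induced by it. Of 21 tested genes on the jasmonate and wound list, 13 were lower (61.9%, against 2.06% of all genes) and none higher: the synthesis genes LOX3, LOX4, AOS, AOC3 and OPR3, the repressors JAZ1, JAZ2, JAZ5, JAZ7, JAZ8 and JAZ10, the turnover enzyme CYP94B3 and the tyrosine aminotransferase TAT3. Their list had a median of -1.14, against -0.001 over all genes. The count was 3 without ICT1-2_NT replicate 1, 5 without ICT1-2_NT replicate 2 and 8 without ICT1-8098_NT replicate 4 or replicate 5, and voom on recovered reads gave 6. JAZ6 (TIFY11B in the table), outside the list, was also lower.

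JAZ1 had 1039, 835 and 982 normalized counts in ICT1-8098_NT, against 4319 and 3891 in ICT1-2_NT and 1268, 1469.9 and 2572 in Col_NT. It was lower in every ICT1-8098 library than in either ICT1-2 library (log2 fold change -2.11 ± 0.23, adjusted p = 1.35e-05). JAZ5 had 23.3, 36.97 and 37.6 in ICT1-8098_NT and 364 and 260.2 in ICT1-2_NT (log2 fold change -3.23 ± 0.49, adjusted p = 0.000452). AOC3, an allene oxide cyclase, had 413, 371 and 454 in ICT1-8098_NT and 1227 and 1661 in ICT1-2_NT (log2 fold change -1.79 ± 0.27, adjusted p = 0.000434). These 3 calls lasted. The largest difference was that of the lipoxygenase LOX3, at 0, 2.58 and 0.94 in ICT1-8098_NT and 80.4 and 58.3 in ICT1-2_NT (log2 fold change -5.19 ± 1.22, adjusted p = 0.0189), and it did not pass without ICT1-2 replicate 1 (adjusted p = 0.167), replicate 2 (0.117) or ICT1-8098 replicate 1 (0.0872). LOX4, a related enzyme, had 14.2, 6.88 and 3.76 in ICT1-8098_NT and 119 and 97.1 in ICT1-2_NT (log2 fold change -3.71 ± 0.82, adjusted p = 0.0111) and did not pass without ICT1-2 replicate 1 (adjusted p = 0.125), replicate 2 (0.0856) or ICT1-8098 replicate 5 (0.0546). JAZ8 was at 6.66, 2.58 and 0.94 in ICT1-8098_NT and 47.1 and 66.03 in ICT1-2_NT (log2 fold change -3.92 ± 1.05, adjusted p = 0.0448) and did not pass without ICT1-2 replicate 1 (adjusted p = 0.185), replicate 2 (0.27), ICT1-8098 replicate 1 (0.05015), replicate 4 (0.12) or replicate 5 (0.151). JAZ2, JAZ7 and JAZ10 differed by -0.96, -2.16 and -2.18, and each lost its call without either ICT1-2_NT library, with adjusted p of 0.146, 0.266 and 0.0951 without replicate 1.

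Some salicylate genes were lower. Salicylate is the hormone of defence against biotrophic pathogens. Of 14 tested genes on its list 6 were lower (42.9%, against 2.06% of all genes) and none higher, with a median of -0.65: WRKY38, GRX480, SARD1, WRKY70, PAD4 and SAG101. GRX480, a glutaredoxin that links salicylate and jasmonate signalling, had 29.1, 31.8 and 26.3 normalized counts in ICT1-8098_NT, against 233 and 275 in ICT1-2_NT and 56.03, 87.3 and 98.4 in Col_NT. It had the smallest adjusted p of all genes (log2 fold change -3.08 ± 0.29, adjusted p = 4.47e-06). SARD1, which drives salicylate synthesis, had 66.6, 50.7 and 52.6 in ICT1-8098_NT and 348 and 398 in ICT1-2_NT (log2 fold change -2.71 ± 0.43, adjusted p = 0.0007). WRKY38 had 11.7, 18.9 and 20.7 in ICT1-8098_NT and 304 and 379 in ICT1-2_NT (log2 fold change -4.27 ± 0.66, adjusted p = 0.000537). The salicylate receptor gene NPR3, not on the list, had 482, 563 and 390.0 in ICT1-8098_NT and 2723 and 2252 in ICT1-2_NT (log2 fold change -2.39 ± 0.41, adjusted p = 0.00159). All 4 lasted, and the lines did not overlap in any of them.

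Ethylene is made by ACC synthases. Of 16 tested ethylene genes 2 were lower (12.5%, against 2.06% of all genes), both of this enzyme class, and the other 14 did not pass. ACS6 had 399, 458 and 405 normalized counts in ICT1-8098_NT and 2951 and 2255 in ICT1-2_NT (log2 fold change -2.62 ± 0.41, adjusted p = 0.0007), and this lasted. ACS7 had 12.5, 6.02 and 15.04 in ICT1-8098_NT and 57.9 and 31.1 in ICT1-2_NT (log2 fold change -1.92 ± 0.51, adjusted p = 0.0448) and did not pass without ICT1-2 replicate 1 (adjusted p = 0.408), replicate 2 (0.0857), ICT1-8098 replicate 1 (0.0828) or replicate 4 (0.199). The list's median was -0.45.

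Some genes of calcium signalling were lower, and most did not pass. Of 34 tested calmodulin-like genes 8 were lower, where 2.06% of all genes were, and none was higher (CML12, CML16, CML23, CML24, CML37, CML38, CML39 and CML40), and of 30 calcium-dependent kinases 4 were lower (13.3%: CPK22, CPK28, CPK29 and CPK32). CML12 and CML24 are the touch genes TCH3 and TCH2. CML12 had 181, 150.5 and 273 normalized counts in ICT1-8098_NT, against 901 and 1652 in ICT1-2_NT (log2 fold change -2.64 ± 0.43, adjusted p = 0.000909). CML37 had 15.8, 18.1 and 22.6 in ICT1-8098_NT and 152 and 218 in ICT1-2_NT (log2 fold change -3.22 ± 0.36, adjusted p = 1.6e-05). CPK28, a kinase that limits immune signalling, had 511, 564 and 557 in ICT1-8098_NT and 2580.1 and 2258 in ICT1-2_NT (log2 fold change -2.15 ± 0.3, adjusted p = 0.000215). OXI1, a kinase induced by hydrogen peroxide, had 129.9, 153 and 161 in ICT1-8098_NT and 648 and 672 in ICT1-2_NT (log2 fold change -2.16 ± 0.21, adjusted p = 5.7e-06). These calls lasted. XTH22, the touch gene TCH4 for a wall-loosening xyloglucan enzyme, had 83.3, 79.1 and 122 in ICT1-8098_NT and 905 and 1203 in ICT1-2_NT (log2 fold change -3.47 ± 0.65, adjusted p = 0.00292), and did not pass without ICT1-2 replicate 2 (adjusted p = 0.0621).

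A few other lower genes were chosen after their values were seen, and nothing is said of a group. SZF1, a zinc finger protein of the CCCH class, had 377, 419.6 and 484 normalized counts in ICT1-8098_NT and 3602 and 3057 in ICT1-2_NT (log2 fold change -2.96 ± 0.53, adjusted p = 0.00222). CAF1-9, a deadenylase that shortens the tails of messages, had 346, 256 and 247 in ICT1-8098_NT and 2038 and 1919.8 in ICT1-2_NT (log2 fold change -2.82 ± 0.45, adjusted p = 0.0007). CAF1-11, of the same enzyme family, had 122, 136 and 101 in ICT1-8098_NT and 415 and 441 in ICT1-2_NT (log2 fold change -1.84 ± 0.32, adjusted p = 0.00169). PCFS1, like PCFS5 shown with its window, had 327, 331 and 284 in ICT1-8098_NT and 1593 and 1279 in ICT1-2_NT (log2 fold change -2.18 ± 0.31, adjusted p = 0.000265). All were lasting calls.

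**Figure D4:**
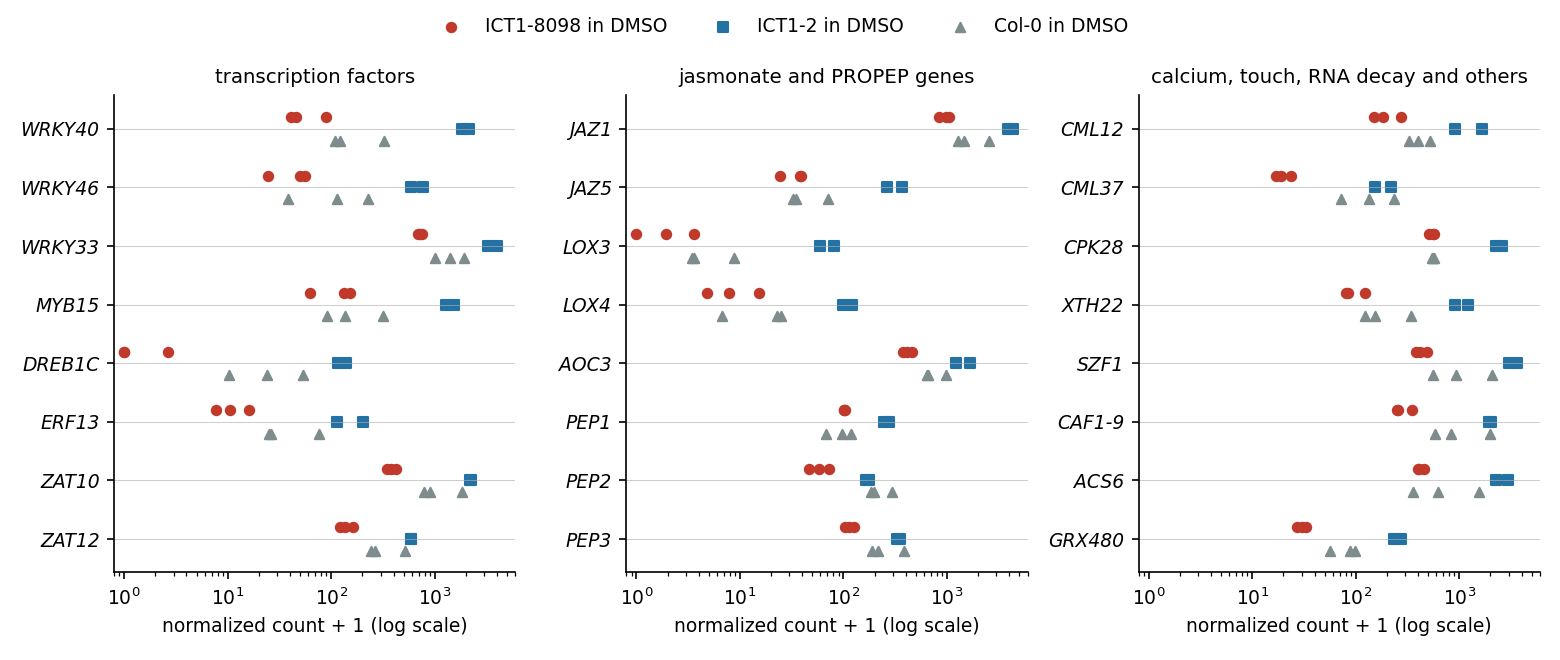
Normalized counts (log axis) of genes of the early stress response in each library of ICT1-8098_NT, ICT1-2_NT and Col_NT. For every gene drawn the 3 ICT1-8098 libraries lie below both ICT1-2 libraries.

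The largest fall of all belonged to QQS, a gene known only in Arabidopsis thaliana that affects starch and protein content and is known for heritable differences in expression between plant stocks. QQS (AT3G30720, chromosome 3, 12349047 to 12349933) had 5.83, 16.3 and 10.3 normalized counts in ICT1-8098_NT, against 1188 and 1460.5 in ICT1-2_NT and 4.94, 0 and 1.76 in Col_NT. Both ICT1-2 libraries stood above all libraries of the other groups, and their mean was 122 times that of ICT1-8098_NT (log2 fold change -6.9 ± 0.83, adjusted p = 3.63e-05). In 200 µM I3C it had 11.7, 9.36 and 4.72 in ICT1-8098_200 and 414, 863 and 642 in ICT1-2_200 (-6.07 ± 0.74, adjusted p = 0.000464).

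Other large falls had varied roles. ARD, an acireductone dioxygenase of methionine salvage, had 38.3, 40.4 and 49.8 normalized counts in ICT1-8098_NT and 1084 and 1092 in ICT1-2_NT (log2 fold change -4.64 ± 0.61, adjusted p = 0.000136). SCPL14, a serine carboxypeptidase-like protein, had 8.33, 0.86 and 0.94 in ICT1-8098_NT and 98.6 and 127 in ICT1-2_NT (log2 fold change -5.13 ± 0.82, adjusted p = 0.000715). VBF, an F-box protein, had 5.00, 2.58 and 13.2 in ICT1-8098_NT and 152 and 139.8 in ICT1-2_NT (log2 fold change -4.45 ± 0.78, adjusted p = 0.00173). These 3 lasted. BHLH19, a transcription factor of the basic helix-loop-helix class, had 6.66, 1.72 and 1.88 in ICT1-8098_NT and 87.9 and 107 in ICT1-2_NT (log2 fold change -4.64 ± 0.96, adjusted p = 0.00711), and did not pass without ICT1-2 replicate 1 (adjusted p = 0.0707) or replicate 2 (0.09). HIPP14, a heavy-metal-associated protein, had 0, 0.86 and 4.7 in ICT1-8098_NT and 112 and 124 in ICT1-2_NT (log2 fold change -5.76 ± 1.16, adjusted p = 0.00556), and did not pass without ICT1-2 replicate 1 (adjusted p = 0.0652) or replicate 2 (0.0712). UGT73B4, a glycosyltransferase of the detoxification list, had 58.3, 81.7 and 128 in ICT1-8098_NT and 378 and 499 in ICT1-2_NT (log2 fold change -2.34 ± 0.26, adjusted p = 1.35e-05), and lasted.

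Called genes lay on all chromosomes at 2.51 to 3.14% of tested genes, and no window of 1 Mb with at least 20 tested genes had more than 6.5%. There were 32 runs of neighbouring tested genes called the same way, with 73 genes, and 5 of them had 3 or more. The longest, chr1:27432178-27445997, held 6 genes that were all lower: AT1G72900, AT1G72910, AT1G72920, TIR, AT1G72940 and AT1G72950. TIR, a short protein of the TIR type found in plant immune receptors, had 11.7, 4.3 and 11.3 normalized counts in ICT1-8098_NT and 58.9 and 100.02 in ICT1-2_NT (log2 fold change -3.05 ± 0.41, adjusted p = 0.000136). TIR and AT1G72940 lasted. A stretch on chromosome 5 held runs of 3 (chr5:21363486-21371592) and 4 (chr5:21375704-21387714), with HIPP13 and HIPP14. HIPP13 had 14.99, 28.4 and 21.6 in ICT1-8098_NT and 228 and 342 in ICT1-2_NT (log2 fold change -3.67 ± 0.41, adjusted p = 1.53e-05), and lasted. Another run of 3 held PEP2, PEP1 and PEP3 (chr5:25934568-25940080), precursors of peptides released by damaged cells, whose calls did not last when single libraries were left out. PEP1 had 103, 99.7 and 99.6 in ICT1-8098_NT and 245 and 277 in ICT1-2_NT (log2 fold change -1.36 ± 0.35, adjusted p = 0.0343) and did not pass without ICT1-2 replicate 1 (adjusted p = 0.154), replicate 2 (0.244), ICT1-8098 replicate 1 (0.0872), replicate 4 (0.0981) or replicate 5 (0.0806). The fifth run held AT4G27652, AT4G27654 and AT4G27657 (chr4:13809779-13813701). Genes in such clusters can share reads, and the kit does not mark the strand, so values of overlapping or copied genes are uncertain.

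Some genes had no reads at all in one line. With a mean of at least 20 normalized counts in the other line, 3 were silent in ICT1-8098_NT and 1 in ICT1-2_NT. TGG1, a myrosinase that cleaves glucosinolates, mainly in shoots, had 0 in all ICT1-8098_NT libraries, against 27.9 and 26.2 in ICT1-2_NT. With a floor of 3 reads over the group it was at least 30.8-fold lower in ICT1-8098_NT. TGG1 was also near 0 in other groups, with 0, 0 and 0.88 in Col_NT and 2.99, 0 and 0 in ICT1-2_200. ECS1, a cell wall-associated protein, had 0 against 10.7 and 38.8, at least 29.1-fold lower. It had 0, 0 and 0.88 in Col_NT and 1.0, 0 and 0 in ICT1-2_200. AT1G72910, of the chromosome 1 run, had 0 against 13.9 and 26.2, at least 23.3-fold lower. It had 0, 0.77 and 1.76 in Col_NT and 15.95, 8.49 and 1.6 in ICT1-2_200. The gene silent in ICT1-2_NT was a 5S rRNA gene, 1 of many copies, with 2.5, 113 and 0 in ICT1-8098_NT. The counts of 1 library made up most of that value. TGG1, ECS1 and the 5S rRNA gene did not reach the filter on level and were not tested.

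Genes higher in ICT1-8098 changed less, and several act in wall building or in sulfur and nitrogen use. Of the 7 lasting ones GDU4 changed most: this glutamine dumper, a regulator of amino acid export, had 662, 806 and 709 normalized counts in ICT1-8098_NT, against 218 and 220.4 in ICT1-2_NT (log2 fold change 1.72 ± 0.31, adjusted p = 0.002). CIPK7, a kinase of the calcium sensor network, had 4148, 3983 and 3499.9 in ICT1-8098_NT and 2013 and 2076 in ICT1-2_NT (log2 fold change 0.92 ± 0.11, adjusted p = 3.63e-05), the smallest adjusted p of the higher genes. ADT3, an arogenate dehydratase of phenylalanine synthesis, had 421, 409 and 356 in ICT1-8098_NT and 216 and 166 in ICT1-2_NT (log2 fold change 1.05 ± 0.16, adjusted p = 0.000452). MSR2, which takes part in mannan synthesis for the wall, had 1239, 1277 and 1199 in ICT1-8098_NT and 691 and 679.8 in ICT1-2_NT (log2 fold change 0.85 ± 0.14, adjusted p = 0.00136). The other lasting ones were SSL10 (strictosidine synthase-like), AT2G29660 and AT2G37035, with differences of 0.99, 1.4 and 1.15. In all 7 every ICT1-8098 library was above both ICT1-2 libraries.

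Larger rises depended on single libraries. AGP30, a root arabinogalactan protein, had 669, 345 and 356 in ICT1-8098_NT and 46.1 and 94.2 in ICT1-2_NT (log2 fold change 2.7 ± 0.68, adjusted p = 0.0305). Its libraries spread widely within both lines, and it did not pass when any 1 library was left out, with adjusted p from 0.0531 to 0.329. LAC2, a laccase, had 128, 131 and 92.1 in ICT1-8098_NT and 24.6 and 34.96 in ICT1-2_NT (log2 fold change 1.94 ± 0.42, adjusted p = 0.0099), and did not pass without ICT1-2 replicate 1 (adjusted p = 0.161) or replicate 2 (0.05004). XTH16, a xyloglucan enzyme, had 506, 173 and 216 in ICT1-8098_NT and 86.8 and 67.0 in ICT1-2_NT (log2 fold change 1.79 ± 0.41, adjusted p = 0.014), and did not pass without ICT1-2 replicate 1 (adjusted p = 0.0755), replicate 2 (0.18) or ICT1-8098 replicate 1 (0.0946). Fasciclin-like arabinogalactan proteins FLA12, FLA15 and FLA17 were higher, 3 of 17 tested (17.65%, against 0.633% of all genes), and no member was lower. The family median was 0.56 in DMSO and 0.115 between the lines in 200 µM I3C. FLA15 had 552, 499.6 and 483 in ICT1-8098_NT and 266 and 202 in ICT1-2_NT (log2 fold change 1.14 ± 0.25, adjusted p = 0.00955), and did not pass without ICT1-2 replicate 2 (adjusted p = 0.19). Of 28 xyloglucan enzymes, XTH16 and XTH31 were higher while XTH18, XTH22 and XTH23 were lower (17.86% called, against 2.7% of all genes).

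The remaining genes among the 12 largest rises were of varied kinds. CYP71B2, a cytochrome P450, had 219.9, 192 and 241 in ICT1-8098_NT and 76.1 and 75.7 in ICT1-2_NT (log2 fold change 1.5 ± 0.33, adjusted p = 0.0109), and did not pass without ICT1-2 replicate 1 (adjusted p = 0.104) or replicate 2 (0.103). ASPG2, an aspartic protease, had 647, 795 and 471 in ICT1-8098_NT and 291 and 154 in ICT1-2_NT (log2 fold change 1.55 ± 0.34, adjusted p = 0.01), and did not pass without ICT1-2 replicate 2 (adjusted p = 0.27) or ICT1-8098 replicate 4 (0.0643). AT4G02630 had 68.3, 63.6 and 75.2 in ICT1-8098_NT and 12.9 and 24.3 in ICT1-2_NT (log2 fold change 1.9 ± 0.41, adjusted p = 0.00955), and did not pass without ICT1-2 replicate 1 (adjusted p = 0.22). AT2G01580, AT3G32040, AT2G36090 and AT1G72230 differed by 2.24, 1.95, 1.76 and 1.51, and each lost its call in at least 4 of the 5 fits that left out 1 library.

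Sulfur and nitrogen genes were among the higher ones. Of 16 sulfur deficiency genes, 4 were higher (25.0%, against 0.633% of all genes) and none lower. The 4 were SDI2, LSU2, LSU4 and APR1, an enzyme of sulfate reduction. The list had a median of 0.71 in DMSO and of -0.196 between the lines in 200 µM I3C. SDI2, a repressor of glucosinolate synthesis under low sulfur, had 421, 330.2 and 389 normalized counts in ICT1-8098_NT, against 168 and 209.8 in ICT1-2_NT (log2 fold change 1.01 ± 0.21, adjusted p = 0.0067). LSU2, induced by low sulfur, had 209, 107 and 161 in ICT1-8098_NT and 47.1 and 55.4 in ICT1-2_NT (log2 fold change 1.57 ± 0.35, adjusted p = 0.0115). None of the 4 passed without ICT1-2_NT replicate 1, and 2 passed without ICT1-2_NT replicate 2 or ICT1-8098_NT replicate 1. Without ICT1-2_NT replicate 1, SDI2 had an adjusted p of 0.146 and LSU2 of 0.145. LSU4 had 16.7, 19.8 and 25.4 in ICT1-8098_NT and 0 and 7.77 in ICT1-2_NT (log2 fold change 2.85 ± 0.67, adjusted p = 0.0194), with an adjusted p of 0.53 without that library. LSU2 and LSU4 are neighbours of related sequence, so their split is uncertain.

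NIR1, the nitrite reductase, had 2878, 2936 and 3242 in ICT1-8098_NT and 1599.7 and 1789 in ICT1-2_NT (log2 fold change 0.83 ± 0.16, adjusted p = 0.00324), and did not pass without ICT1-2 replicate 1 (adjusted p = 0.0814). It was the 1 called gene of 16 on the nitrate list, whose median was 0.69. CHS, chalcone synthase, the entry to flavonoids, had 2797, 3091 and 3283 in ICT1-8098_NT and 1308 and 994 in ICT1-2_NT (log2 fold change 1.42 ± 0.28, adjusted p = 0.00544), and did not pass without ICT1-2 replicate 2 (adjusted p = 0.125). It was 1 of 15 phenylpropanoid and flavonoid genes tested. CSD2, a copper and zinc superoxide dismutase of plastids, had 1160.2, 747 and 866 in ICT1-8098_NT and 388 and 464 in ICT1-2_NT (log2 fold change 1.1 ± 0.22, adjusted p = 0.0048), and did not pass without ICT1-2 replicate 1 (adjusted p = 0.107). Of 16 oxidative stress genes, CSD1 and CSD2 were higher and ZAT10 and ZAT12 lower (25.0% called, against 2.7% of all genes). HSP90.1, a heat-inducible chaperone, was the 1 heat shock gene of 19 to pass (log2 fold change 1.04 ± 0.26, adjusted p = 0.0293), and did not pass without ICT1-2 replicate 1 (adjusted p = 0.104), replicate 2 (0.279), ICT1-8098 replicate 4 (0.0593) or replicate 5 (0.127). GH3.17, which conjugates auxin to amino acids, was the 1 auxin response gene of 29 (log2 fold change 1.08 ± 0.29, adjusted p = 0.0466), and lost its call when any 1 library was left out, with adjusted p from 0.0811 to 0.248. PHT1;5, a phosphate transporter, was the 1 phosphate gene of 18, with 18 reads in ICT1-8098_NT and 1 read in ICT1-2_NT (log2 fold change 2.15 ± 0.56, adjusted p = 0.0385), and lost its call when any 1 library was left out, with adjusted p from 0.073 to 0.374. The ratio of ICT1-2 to ICT1-8098 was 0.097, with a counting interval of 0.00233 to 0.614. The nitrate, flavonoid, heat shock, auxin response and phosphate lists each had 1 called gene. That was 3.45 to 6.67% of the tested genes of a list, against 2.7% of all genes.

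Each list of glucosinolate, camalexin and auxin synthesis genes, on pathways that I3C touches, had 0 to 2 called genes without I3C, or at most 10.5% of its members against 2.7% of all genes. Of 16 indole glucosinolate genes 1 was lower: CYP81F3, which modifies the indole ring, had 306, 246 and 265 in ICT1-8098_NT and 546 and 604 in ICT1-2_NT (log2 fold change -1.08 ± 0.21, adjusted p = 0.00443), and did not pass without ICT1-2 replicate 2 (adjusted p = 0.079). Of 16 aliphatic glucosinolate genes only the regulator MYB29 passed, with 1 read in ICT1-8098_NT and 31 reads in ICT1-2_NT (log2 fold change -3.77 ± 0.93, adjusted p = 0.0261), a ratio of 0.0185 with a counting interval of 0.000453 to 0.111, and it did not pass without ICT1-2 replicate 1 (adjusted p = 0.157), replicate 2 (0.181), ICT1-8098 replicate 4 (0.0932) or replicate 5 (0.0741). Of 10 camalexin genes WRKY33 alone passed, and of 11 glucosinolate breakdown genes none did. The ER body enzyme PYK10 had the highest level of them, at 87118, 78300.0 and 72906 in ICT1-8098_NT and 55792 and 53962 in ICT1-2_NT (log2 fold change 0.53 ± 0.31, adjusted p = 0.482), and it did not pass although the lines did not overlap. Among 19 tryptophan and auxin synthesis genes, the nitrilase NIT2 and the flavin monooxygenase YUC5 were lower. NIT2 had 365, 189 and 236 in ICT1-8098_NT and 579.7 and 809.9 in ICT1-2_NT (log2 fold change -1.43 ± 0.37, adjusted p = 0.0354) and did not pass without ICT1-2 replicate 1 (adjusted p = 0.104), replicate 2 (0.311), ICT1-8098 replicate 4 (0.161) or replicate 5 (0.0952). YUC5 had 52.5, 31.8 and 27.2 in ICT1-8098_NT and 106 and 89.3 in ICT1-2_NT (log2 fold change -1.42 ± 0.37, adjusted p = 0.0386) and did not pass without ICT1-2 replicate 1 (adjusted p = 0.281), replicate 2 (0.15), ICT1-8098 replicate 4 (0.13) or replicate 5 (0.142).

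Of 21 abscisic acid and drought genes 2 were lower (9.52%, against 2.06% of all genes). One was the catabolic enzyme CYP707A3 (log2 fold change -1.38 ± 0.37, adjusted p = 0.0441), whose adjusted p was 0.0819 to 0.303 when any 1 library was left out. The other was the dehydrin ERD10 (log2 fold change -1.12 ± 0.27, adjusted p = 0.0214), which did not pass without ICT1-2 replicate 1 (adjusted p = 0.318), ICT1-8098 replicate 1 (0.0547), replicate 4 (0.0571) or replicate 5 (0.0693). The detoxification list had GSTU25 beside UGT73B4 as lower genes among 24 tested (8.33%, against 2.06% of all genes). GSTU25 (log2 fold change -1.5 ± 0.4, adjusted p = 0.0421) did not pass without ICT1-2 replicate 1 (adjusted p = 0.24), replicate 2 (0.207), ICT1-8098 replicate 1 (0.228) or replicate 4 (0.0724). Of 14 shoot photosynthesis genes 3 were lower (21.43%, against 2.06% of all genes), the light-harvesting genes CAB3, LHCB1.1 and LHCB2.1. The median of the list was -1.29. The count was 0 without ICT1-2_NT replicate 1 and 1 without ICT1-8098_NT replicate 1. CAB3 had 9.99, 9.46 and 9.4 in ICT1-8098_NT and 182 and 61.2 in ICT1-2_NT (log2 fold change -3.33 ± 0.61, adjusted p = 0.00252), and did not pass without ICT1-2 replicate 1 (adjusted p = 0.114). The 14 genes summed to 1119 to 1345 in ICT1-8098_NT, against 2301 to 2573 in ICT1-2_NT and 1757 to 4458 in Col_NT, with no gene at 0 in every library of a line. These sums differed between the lines in DMSO, and their part in the results was not tested. Between the lines in 200 µM I3C the median difference of the 14 genes was 0.13. CAB3 and LHCB1.1 are neighbours of near-identical sequence and are uncertain.

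No gene passed on the lists of unfolded protein response (13 tested), root triterpenes (8), immune receptors of the NLR class (16), iron (22), aquaporins (19), flowering repressors (13), clock (12), cell cycle (23), autophagy (22), cytokinin (18) or RNA silencing (22). Together with glucosinolate breakdown and the root, seed and flower markers, the lists without a call in limma had 237 tested genes. Of these, 41 had an unadjusted p under 0.05 with limma and 6 passed with voom. Over all 21180 genes tested the counts were 2961 and 585. Aquaporins held 10 of the 41, and 1 of the 19 was lower in ICT1-8098. Their median difference was 0.51 in DMSO, against -0.001 over all genes, and 0.27 in 200 µM I3C. The aquaporin TIP1-2 had 8469, 6222 and 6528 in ICT1-8098_NT and 4364 and 4186 in ICT1-2_NT (log2 fold change 0.71 ± 0.31, adjusted p = 0.277). The iron-responsive proton pump AHA2 had 12659.9, 16499.6 and 13364 in ICT1-8098_NT and 9334 and 7140.2 in ICT1-2_NT (log2 fold change 0.79 ± 0.35, adjusted p = 0.307). The meristem factor PLT1 had 302, 287 and 327 in ICT1-8098_NT and 452 and 462 in ICT1-2_NT (log2 fold change -0.58 ± 0.17, adjusted p = 0.063). By gene class, 134 higher and 434 lower genes were protein-coding, of 20588 tested, and 2 lower ones were ncRNA genes, of 121.

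Placed beside wild type, most lower genes had ICT1-2 above it and ICT1-8098 below it. Both differences share Col_NT and the line libraries, so they are set side by side as values only. Of the 437 lower genes, the mean of Col_NT lay between the lines for 329, above both for 33 and below both for 75, and it was nearer to ICT1-8098 for 277. Their median difference from Col_NT was -0.64 for ICT1-8098 and 1.02 for ICT1-2. WRKY40 lay further from Col_NT in ICT1-2, with -1.56 for ICT1-8098 and 3.63 for ICT1-2. ERF2 and CML37 lay further from it in ICT1-8098. ERF2 had -2.33 for ICT1-8098 and -0.14 for ICT1-2, and CML37 had -2.75 and 0.47. Of the 134 higher genes, Col_NT lay between the lines for 78 and above both for 52, and was nearer to ICT1-8098 for 113. Their medians were 0.09 for ICT1-8098 and -0.85 for ICT1-2. CIPK7 differed from Col_NT by 0.25 in ICT1-8098 and by -0.66 in ICT1-2. Against Col_NT, 2579 genes passed in ICT1-8098 (12.2%) and 3846 in ICT1-2 (18.2%), where 2308 passed without ICT1-2_NT replicate 1 and 1973 without replicate 2.

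In 200 µM I3C the difference between the lines kept its direction for most of these genes. I3C-treated libraries are other samples than those in DMSO, so they measure the line difference anew. Of the 437 lower genes 388 (88.8%) were also lower in ICT1-8098_200 than in ICT1-2_200, and of the 134 higher genes 107 (79.9%) were also higher. Over all genes tested 54.9% had the same sign. The medians were -0.6 for the lower genes and 0.24 for the higher ones, against -1.71 and 0.94 in DMSO, where the genes were chosen by the size of that difference, so the gap between these medians does not show that the difference changed. Past the threshold in the same direction were 35 lower and 9 higher genes, where 0.382 and 0.227% of all genes passed, and none passed in the opposite one. The 200 µM comparison called 129 genes in all (0.609%), 13 without ICT1-2_200 replicate 4, 43 without its replicate 5, 74 without its replicate 2, and 42 or 60 without ICT1-8098_200 replicate 2 or 3. When only these 6 libraries were fitted, 0 genes passed and 2261 had an unadjusted p under 0.05.

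The genes with the smallest adjusted p among those that passed in both treatments were QQS, AT5G52680, AT5G52710, JAZ1, RPS30A, LHT7, WRKY40 and JAZ5. JAZ1 had 1486, 1957 and 1513 normalized counts in ICT1-8098_200, against 3550.4, 4853 and 4647 in ICT1-2_200 (-1.39 ± 0.21, adjusted p = 0.00209). WRKY40 had 224, 375 and 269 in ICT1-8098_200 and 1500.1, 2794 and 2294 in ICT1-2_200 (-2.91 ± 0.5, adjusted p = 0.0101). LHT7, related to lysine and histidine transporters, had 5.00, 12.04 and 11.3 in ICT1-8098_NT and 35.4 and 24.3 in ICT1-2_NT (log2 fold change -1.62 ± 0.34, adjusted p = 0.00768), and did not pass in DMSO without ICT1-2 replicate 1 (adjusted p = 0.159) or ICT1-8098 replicate 1 (0.05048). Nor did LHT7 pass in DMSO with limma on the compared groups alone (adjusted p = 0.127) or with voom (0.134). In I3C it had 58.7, 73.2 and 100.27 in ICT1-8098_200 and 251, 303 and 347 in ICT1-2_200 (-1.97 ± 0.3, adjusted p = 0.00342). JAZ5 had 71.2, 89.3 and 33.03 in ICT1-8098_200 and 171, 481 and 548 in ICT1-2_200 (-2.56 ± 0.44, adjusted p = 0.0101).

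For 4 stress genes the gap between the lines was smaller in I3C than in DMSO. The test of that change, the interaction of line and I3C, called these genes (0.0189% of all): CML37, ZAT12, OXI1 and GRX480. It had an unadjusted p under 0.05 for 1765 genes. ZAT12, a zinc finger factor of oxidative and cold stress, had 162, 119.5 and 133 in ICT1-8098_NT and 586 and 591 in ICT1-2_NT, against 3059, 5224 and 4334 in ICT1-8098_200 and 4956, 4111 and 4238 in ICT1-2_200. The lines did not overlap in DMSO and overlapped in I3C, where all libraries were far higher (interaction 1.99 ± 0.34, adjusted p = 0.0392). No gene passed without ICT1-2_NT replicate 1, ICT1-2_NT replicate 2, ICT1-8098_NT replicate 4, ICT1-8098_200 replicate 3 or ICT1-2_200 replicates 2 or 4, each left out alone, and none passed with voom.

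**Figure D5:**
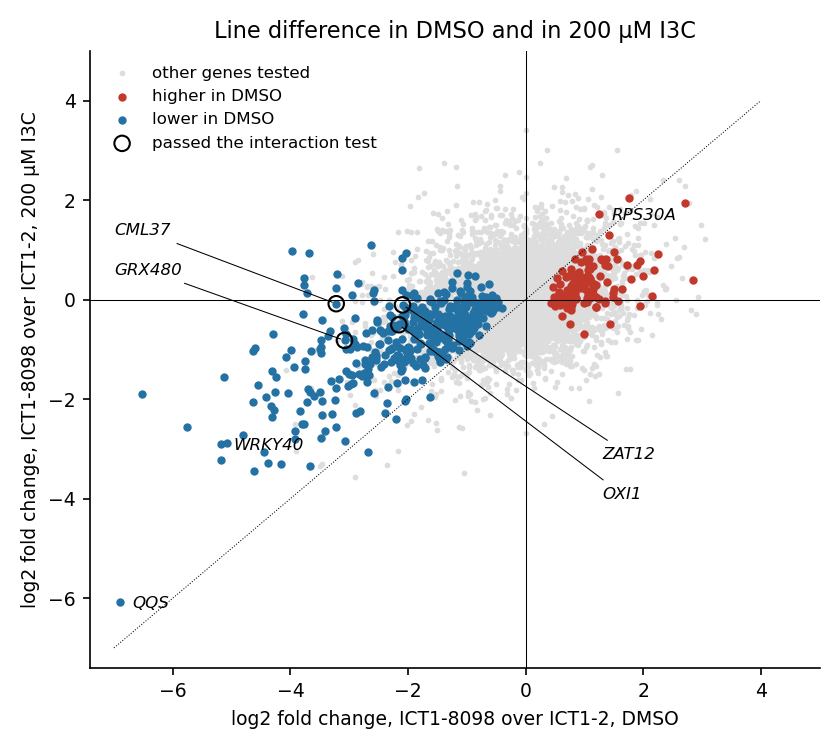
Difference between the lines, ICT1-8098 minus ICT1-2, in 200 µM I3C (vertical, log2) against the same difference in DMSO (horizontal, log2) for all genes tested. The 571 genes called in DMSO are coloured, and the 4 interaction genes are marked. Most coloured points share the sign of both differences, with 388 of 437 lower genes below 0 in I3C. The coloured genes were chosen by their difference in DMSO.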

How the data were processed

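Per the file headers, the authors deposited normalized counts with the libraries of each group packed in one cell, beside log2 fold changes and p-values of their own comparisons. The submitters' processing notes name TopHat2 2.1.0, HTSeq 0.6.1, DESeq2 1.18.1 and TAIR10, without saying what each was used for. Per the labels' protocols, libraries were made with the TruSeq RNA kit v2, which does not mark the strand. Multiplied by a size factor per library, 100% of the deposited values came out whole within 0.1 reads, and the 26 libraries held 9503924 to 19433428 reads. In the 5 compared libraries 3 reads amount to 0.202 to 0.262 CPM (reads scaled to the library total), which covers counting error only.

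Values were tested as log2(normalized count + 1) with limma 3.58.1 in R 4.3.3, a scale that understates the fold change of low genes. The fit took the 21180 of 34262 genes that reached 10 normalized counts in 3 or more libraries. All 26 libraries shared it, with group means and eBayes with a variance trend, and p-values were two-sided with Benjamini-Hochberg adjustment at 0.05. The labels do not name separate cultures, so the replicate spread may be technical, and p-values measure no more than that spread.

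Gene lists, families, promoter elements and named genes were chosen with earlier results of these data known. Named by rule were the S30 genes, the 12 largest rises and falls among called, non-overlapping genes with a mean of at least 50 in the higher group, up to 3 called members of each list, the 8 genes with the smallest adjusted p that passed in both treatments, silent genes, the longest runs and the interaction genes. Other genes were named after their values were seen. Alternatives were TMM and total-read scaling, other filters and pseudocounts (0.5 and 5), fits of the compared groups only, a block for the replicate number, voom on recovered reads and leaving out each library. The authors' calls, and the counts of lists and of each line against Col_NT under these settings, were added after the data were seen. The script was tested on simulated data. The windows of the other genes are not reported here.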

Additional observations from a re-analysis of the deposited data

Results flagged for a closer look

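For 4 genes the difference between the lines was itself different in 200 µM I3C and in DMSO, by limma's test of the interaction with Benjamini-Hochberg adjustment over all genes. The calmodulin-like gene CML37 had a line difference that was higher by 3.14 on the log2 scale in I3C than in DMSO (SE 0.49, adjusted p = 0.0335). It had 2933, 4633 and 3381 normalized counts in ICT1-8098_200 and 3466, 4175 and 3775 in ICT1-2_200, against 15.8, 18.1 and 22.6 in ICT1-8098_NT and 152 and 218 in ICT1-2_NT. The zinc finger gene ZAT12 changed by 1.99 (SE 0.34, adjusted p = 0.0392). The kinase gene OXI1 changed by 1.65 (SE 0.28, adjusted p = 0.0392), with 1903, 2749 and 1873 in ICT1-8098_200 and 2944, 2904 and 3282 in ICT1-2_200, against 129.9, 153 and 161 in ICT1-8098_NT and 648 and 672 in ICT1-2_NT. The glutaredoxin gene GRX480 changed by 2.26 (SE 0.38, adjusted p = 0.0392), with 278, 408 and 306 in ICT1-8098_200 and 438, 621 and 706 in ICT1-2_200, against 29.1, 31.8 and 26.3 in ICT1-8098_NT and 233 and 275 in ICT1-2_NT. In DMSO all 3 ICT1-8098 libraries were below both ICT1-2 libraries for each of the 4 genes. In I3C the lines overlapped for CML37 and ZAT12 and did not for OXI1 and GRX480. No gene passed in 6 of the 11 fits that left out a single library, as given with the test above, nor under voom.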

How the results depend on the processing

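In the fits other than those leaving out a library, the 571 genes of the DMSO comparison became 427 (only absolute log2 differences over 1) to 731 (replicate block), and 704 with the compared groups alone, of which 400 were shared with the 571. The authors' deposited table called 957 in DMSO and 380 at 200 µM. Leaving out a library in turn gave 204 to 467 genes in DMSO, 13 to 155 at 200 µM, 0 to 20 for the interaction, 1823 to 1952 for ICT1-8098 and 1973 to 2308 for ICT1-2 against Col_NT, and, among list members, 3 to 9 jasmonate, 4 to 6 salicylate, 0 to 3 photosynthesis, 0 to 3 sulfur and 7 to 13 WRKY genes. The 200 µM count of 129 was 0 with the compared groups alone. The interaction count of 4 was 1 with the compared groups alone, 12 without a filter, 11 with a pseudocount of 0.5, 16 with the replicate block, 16 with total-read scaling and 0 with voom. Voom gave 6 jasmonate, 0 photosynthesis and 2 sulfur genes. Absolute log2 differences over 1 left 1466 genes for ICT1-8098 and 2021 for ICT1-2 against Col_NT. Genes without reads in ICT1-8098_NT were 6 at a minimum mean of 10, 0 at 50 and 6 when 1 read was allowed, and in ICT1-2_NT 3 at 10 and 0 at 50. Lower genes made up 76.5% of calls, 80.1% with total-read scaling, 73.3% with TMM and 70.4% with voom. The median of all genes was -0.001, -0.023 with total-read scaling and 0.018 with TMM. Of 114 genes chosen by rule 77 passed, 41 of them under every fit other than those leaving out a library and 26 in all 5 of those, and none changed direction. Among the 77, voom did not call 26 and the fit of the compared groups alone did not call 15. Genes that voom did not call included VBF, LOX3, HIPP14, ERF109, AGP30 and LSU2 (adjusted p with voom 0.202, 0.174, 0.0643, 0.181, 0.165 and 0.197). The replicate numbers do not pair the samples: only number 1 occurs in both lines in DMSO, those libraries correlated at 0.096 in their deviations from the group means, and same-numbered libraries correlated at -0.115 to 0.203. With the replicate block 731 genes passed in DMSO and 143 at 200 µM. The planned edgeR and DESeq2 tests on recovered reads were not run, and voom took their place. The cause of these changes was not tested. That ICT1-2 has 2 libraries in DMSO limits the precision of each difference.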
